A study of Mus musculus with 54 samples.

Results

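Macula densa nuclei were taken from single-nucleus RNA-seq libraries of whole mouse kidney as barcodes with at least 2 unique molecular identifiers (UMIs) of Nos1 and at least 1 of Slc12a1. There were 233 of them among the 98303 nuclei of 12 Balb/c libraries. All 233 lay in the 9 libraries of female mice, which held 74454 nuclei, so that the members were 0.313% of those nuclei (95% Wilson interval 0.275% to 0.356%, counting error only). They were compared with 14781 thick limb nuclei of the same 9 libraries, defined by at least 2 UMIs of Slc12a1 and none of Nos1. The study compared ways of preparing kidney for single-cell and single-nucleus sequencing, and the nuclei came from flash-frozen kidneys in biological triplicate (3 mice per group). The 9 female libraries came from mice 15 weeks old that had been used as breeders, and were made with 10x Chromium chemistry version 3. In 3 of them nuclei were washed 3 times with spins at 500 g and sorted by DAPI fluorescence (FANS 3x500g), in 3 they were washed 1 time with spins at 2000 g and sorted (FANS 1x2000g), and in 3 they were cleaned over a sucrose gradient without sorting (sucrose). The remaining 3 libraries were FANS 3x500g nuclei of males 18 weeks old from 1 litter, made with chemistry version 2. Sex, age, chemistry and batch therefore cannot be told apart between the male and the female libraries. No group was sorted for a kidney cell type.

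The macula densa is a plaque of epithelial cells at the end of the thick ascending limb, where the tubule touches the glomerulus of its own nephron. Its cells sense salt in the tubular fluid through the sodium-potassium-chloride cotransporter NKCC2, encoded by Slc12a1, and pass signals to the afferent arteriole and the renin-producing cells. They are known for neuronal nitric oxide synthase, encoded by Nos1, and for cyclooxygenase-2, encoded by Ptgs2, the enzyme that starts prostaglandin synthesis. Thick limb cells take up salt through the same cotransporter and secrete uromodulin (Umod) and epidermal growth factor (Egf).

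The female libraries held 6971 to 9308 nuclei and 26142380 to 35170947 UMIs each, and the male libraries 7609 to 8611 nuclei and 7629138 to 9390078 UMIs. A pair of female libraries shared 11 to 30 barcodes, and no barcode was a member in 2 libraries. Members were shallower than thick limb nuclei in all 9 libraries, with a median of 2294 to 2792 UMIs per nucleus against 2613 to 3452. Levels are given below as UMIs per 10000 UMIs of the nuclei summed in a library, and levels of different genes are not compared, since nuclear UMIs rise with gene length.

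The values that chose the members are a description. Nos1 (GRCm38 chromosome 5, 117781032 to 117958840, plus strand) had a median of 3 UMIs per member, and the highest member had 20. Exactly 2 UMIs were found in 86 members, 3 in 60, 4 to 5 in 60 and 6 or more in 27. Just outside the gate stood 187 nuclei with 1 UMI of Nos1 and at least 1 of Slc12a1, and 4 nuclei with 2 UMIs of Nos1 and none of Slc12a1. Of those 4, 2 held 32 and 44 UMIs of proximal tubule markers and the other 2 held 29 and 46 of connecting tubule markers. Slc12a1 (chromosome 2, 125152505 to 125230002, plus strand) had a median of 31 UMIs per member and was never below 4. The members held 71.4% of the 1198 Nos1 UMIs of the female libraries and 0.243% of all UMIs. As a background, 25620 proximal tubule nuclei, which should lack Nos1, were taken by at least 5 UMIs of proximal tubule markers and none of Slc12a1. Of these, 105 (0.410%) held a UMI of Nos1 at a median depth of 3815 to 5233 UMIs, and 3 (0.0117%) held 2 or more. These 3 are among the 4 nuclei above, and 1 of them is the nucleus with 46 UMIs of connecting tubule markers. Nuclei with a UMI of Slc12a1 are not part of this background.

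The label was set beside genes that the gate did not use. Like the members, these genes were chosen with earlier results of these data known, so the values are a description. A list of 24 genes reported for the macula densa, without Nos1, made up 12.0 UMIs per 10000 in nuclei with no Nos1 UMI, 57.7 in the 132 nuclei with 1 Nos1 UMI and at least 2 of Slc12a1, and 87.1, 102, 112 and 114 in members with 2, 3, 4 to 5 and 6 or more. Robo2, a receptor for Slit ligands, is in the list and made up a large part of these sums. It went from 0.975 to 27.3 and then to between 43.1 and 57.3 per 10000 over the same steps. Egf went the other way, from 73.5 to 28.6 and then to between 1.61 and 10.8. Members held a median of 6 list genes per nucleus, against 2 in the deeper thick limb nuclei, and 99.1% of members held 3 or more, against 27.0%. The sum over the nuclei with 1 Nos1 UMI thus lay between the classes, and these nuclei were mixed: of the 132, 34 held none of Robo2, Pappa2, Tshr and Unc5d, genes chosen after their values were seen, and 47 held 3 or more. They were put in neither class.

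**Figure D1:**
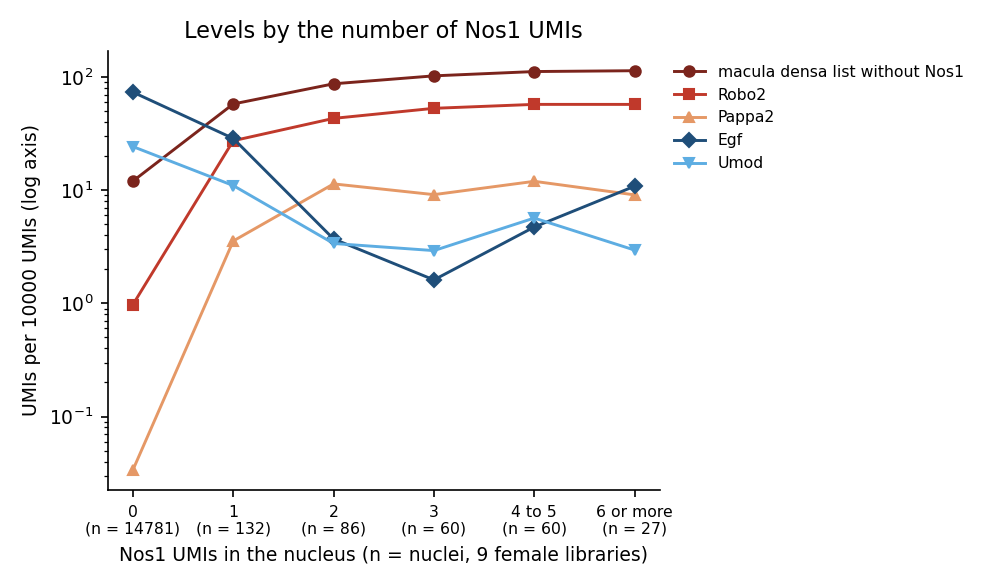
Levels per 10000 UMIs (log axis) in nuclei of the 9 female libraries with at least 2 UMIs of Slc12a1 (members need 1), grouped by their Nos1 UMIs; each point is the sum over the nuclei numbered under it. The macula densa list and its genes Robo2 and Pappa2 stand higher and Egf and Umod lower in nuclei with Nos1, with the 132 nuclei of 1 Nos1 UMI in between.

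The thick limb class was mixed. Of its 14781 nuclei, 3113 held only 2 to 4 UMIs of Slc12a1, 76 held 5 to 9 and 8195 held 40 or more. In the 3113 nuclei Egf stood at 5.50 per 10000, against 97.6 in those with 40 or more, and 64.3% held 3 or more UMIs of proximal tubule markers. Just 3 members had fewer than 10 UMIs of Slc12a1, while 35, 121 and 74 had 10 to 19, 20 to 39 and 40 or more. At matched Slc12a1, members still stood apart: Egf was 1.37, 2.26 and 8.28 per 10000 in members and 69.9, 86.3 and 97.6 in thick limb nuclei over these 3 ranges. Against thick limb nuclei with at least 5 or at least 10 UMIs of Slc12a1, 13 named genes described below lost or turned their call: Kcnj15, Ptger3, Ass1, Slit3 and Fgfr3 changed sign, and Esrrg, Pax8, Emx1, Hpgd, Plxna2, Plxna4, Nr3c1 and Mapk14 kept their sign without the call.

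**Figure D2:**
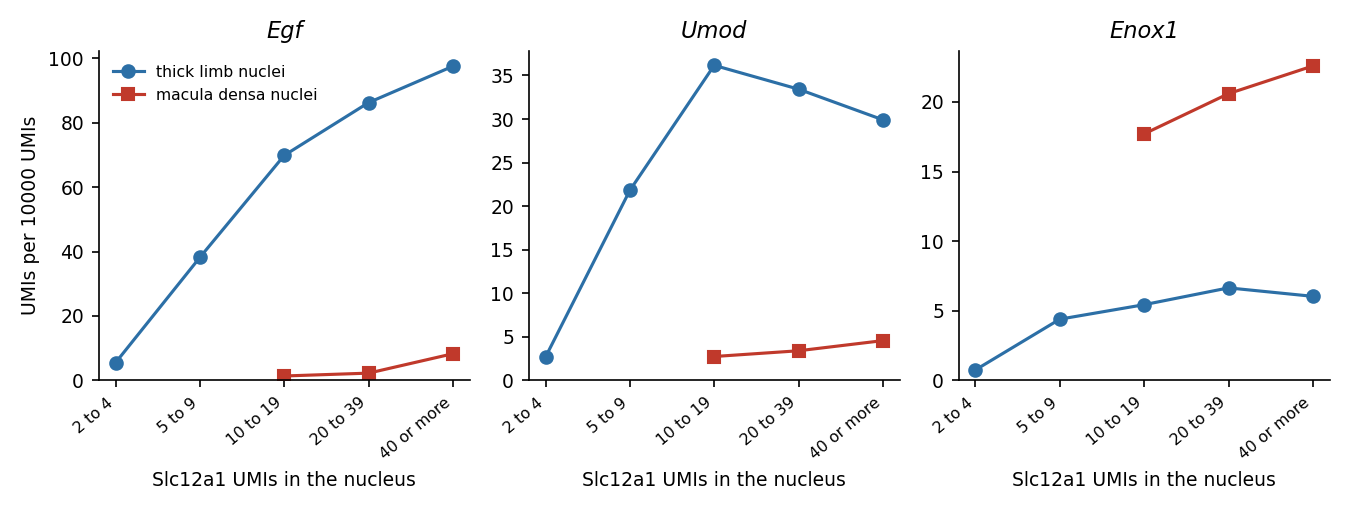
Level per 10000 UMIs (linear axes from 0) of Egf, Umod and Enox1 in thick limb and macula densa nuclei summed by their Slc12a1 UMIs; the 3 members with fewer than 10 are left out. Thick limb nuclei with 2 to 4 UMIs of Slc12a1 had the lowest level of all 3 genes in their class, and in each range from 10 UMIs up members were lower in Egf and Umod and higher in Enox1.

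The first comparison asked how many macula densa nuclei each preparation gave. FANS 3x500g libraries held 45, 29 and 38 members, FANS 1x2000g libraries 27, 20 and 23, and sucrose libraries 20, 16 and 15. Per 1000 macula densa plus thick limb nuclei this was 18.6, 15.3 and 23.9, then 16.8, 12.3 and 18.6, and then 12.9, 9.94 and 10.1. The means were 19.3 ± 4.35, 15.9 ± 3.24 and 10.98 ± 1.70 (SD, n = 3 each). All 3 sucrose libraries were below all 3 FANS 3x500g libraries, whereas both other pairs of female protocols overlapped. Each pair was tested by an exact permutation of library labels, two-sided, which with 3 against 3 cannot give less than p = 0.1. The difference was -8.31 for sucrose minus FANS 3x500g (exact p = 0.1, Benjamini-Hochberg adjusted over 4 pairs 0.2). For FANS 1x2000g minus FANS 3x500g it was -3.41 (exact p = 0.4, adjusted 0.4), and for sucrose minus FANS 1x2000g -4.91 (exact p = 0.2, adjusted 0.267). None passed the threshold. The order of the libraries differed after thinning, on few members. Sucrose libraries held 14, 5 and 4 members at 1000 UMIs and 2, 0 and 2 at 500. FANS 3x500g libraries held 18, 12 and 13, and then 10, 7 and 6. Whether depth or counting error changed the order was not tested. After thinning every nucleus to 1000 UMIs the sucrose and FANS 3x500g libraries overlapped, with means of 6.04 ± 4.45 and 9.22 ± 0.911 (exact p = 0.4), since sucrose replicate 1 then stood at 11.2. After thinning to 500 UMIs they did not, with 1.69, 0 and 1.75 in sucrose and 5.58, 5.01 and 4.81 in FANS 3x500g libraries (difference -3.98, exact p = 0.1). The FANS 1x2000g libraries overlapped FANS 3x500g in the first measure but lay wholly below them at both thinned depths (differences -3.01 and -1.39, exact p = 0.1 each). They also did at full depth with at least 3 UMIs of Nos1 (difference -3.32) and per 1000 of all nuclei (difference -2.17), with exact p = 0.1 each. They overlapped with at least 1 UMI of Nos1 (-1.91, exact p = 0.7) and against thick limb nuclei with at least 10 UMIs of Slc12a1 (-6.60, exact p = 0.2). Sucrose lay wholly below FANS 1x2000g with at least 3 (-3.69) or 1 UMI of Nos1 (-7.83) and at 500 UMIs (-2.60, exact p = 0.1 each). In the other settings these 2 overlapped.

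**Figure D3:**
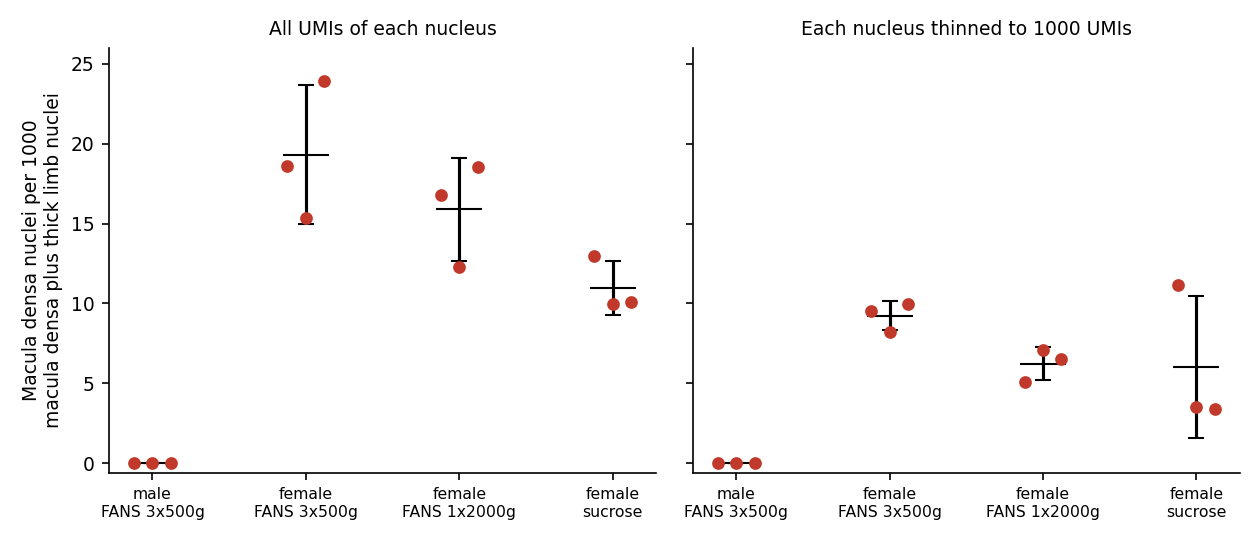
Macula densa nuclei per 1000 macula densa plus thick limb nuclei in each library (points), with the mean and SD of 3 libraries, from all UMIs (left) and after thinning to 1000 UMIs per nucleus (right). The male libraries are at 0, and sucrose libraries lie below FANS 3x500g libraries on the left but overlap them on the right.

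The 3 male libraries held no member among 3662 thick limb nuclei, and no male nucleus held more than 1 UMI of Nos1. The count of 0 allows up to 0.0819% of nuclei that pass the gate of 2 UMIs, which is no limit on macula densa nuclei at this depth. Below the gate, 18 male nuclei held 1 UMI of Nos1 and at least 2 of Slc12a1. As a background, 35 of 11764 male proximal tubule nuclei (0.298%), at a median depth of 1086 to 1269 UMIs, held a UMI of Nos1. In all, 39 male nuclei held 1 UMI of Nos1 and none of Slc12a1. How many of the 18 are background was not tested. The difference from female FANS 3x500g nuclei was 19.3 per 1000 (exact permutation p = 0.1, adjusted 0.2). Male thick limb nuclei held a median of 634 to 656 UMIs. After thinning to 500 UMIs, 4.81 to 5.58 members per 1000 remained in the female FANS 3x500g libraries and none in the male ones, which then had 867 to 1080 thick limb nuclei each. Free of the gate of 2 UMIs, Nos1 was 2.45 to 2.74 per 1000000 UMIs in whole male libraries and 6.12 to 7.11 in female FANS 3x500g libraries. In bulk RNA-seq of intact kidneys, whose library kits differed between the sexes, it was 2.86 to 3.44 per 1000000 reads in males and 3.34 to 5.22 in females, which overlap. Sex, age, chemistry, batch and depth differed together between these libraries.

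The main comparison asked what sets macula densa nuclei apart from thick limb nuclei of the same kidney. UMIs were summed per library and class, and the 9 pairs of sums were tested in edgeR by quasi-likelihood with the library as a block. Of 11689 genes tested, 626 (5.36%) were higher and 1910 (16.3%) lower in macula densa nuclei at a Benjamini-Hochberg adjusted p of 0.05, together 21.7%. The balance depended on scaling: higher genes were 24.7% of the calls with TMM, 34.9% with RLE size factors, 37.9% with DESeq2 and 44.8% with total-count scaling. The median log2 fold change of all genes shifted with it, from -0.22 with TMM to -0.10, -0.13 and -0.0005 under those settings, so values near -0.2 are not read as a fall. A filter that kept genes with at least 20 UMIs in members, observed or expected at the thick limb level, left 6647 genes with 826 higher and 1277 lower. On simulated data the wider filter let through more unchanged genes as lower than this one did, so calls as lower of genes with few UMIs in members are the least certain. At least 2 on the log2 scale separated 107 higher and 495 lower genes. All 9 macula densa sums lay above all 9 thick limb sums for 215 genes (1.84%) and below them for 465 (3.98%).

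The 12 genes with the largest rise among those with at least 20 UMIs in members and higher in all 9 libraries included Pappa2, Ptgs2, Bmp3 and Robo2 of the macula densa list and 8 genes outside it. Pappa2, which encodes a metalloproteinase that cleaves insulin-like growth factor binding proteins (chromosome 1, 158711727 to 158980490, minus strand), had 4.82, 11.7 and 15.1 UMIs per 10000 in the lowest, median and highest macula densa sum. In thick limb sums it had 0.00800, 0.0347 and 0.0814, and the log2 fold change was 8.06 ± 0.16 (SE). Robo2 (chromosome 16, 73891839 to 74411825, minus strand) had 24.99, 49.6 and 68.0 in macula densa sums and 0.784, 0.999 and 1.32 in thick limb sums, a log2 fold change of 5.37 ± 0.12. The classes did not overlap for any of the 12 genes, which were chosen from the same data as higher in all 9 libraries. Several, such as Ptgs2 (0.00484 per 10000) and C630028M04Rik (0.00888), were nearly absent from thick limb sums and passed the filter through the members. The lack of overlap is therefore a description.

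Tshr, the receptor for thyroid-stimulating hormone (chromosome 12, 91384563 to 91549808, plus strand), had 4.76, 7.63 and 14.5 per 10000 in macula densa sums and 0.0660, 0.161 and 0.206 in thick limb sums, with a log2 fold change of 5.69 ± 0.15. Unc5d, a receptor for netrins (chromosome 8, 28646717 to 29219636, minus strand), had 3.70, 7.25 and 9.05 against 0.0563, 0.0684 and 0.107, with a log2 fold change of 6.40 ± 0.16. Adarb2, a relative of the RNA-editing deaminases (chromosome 13, 8202866 to 8768747, plus strand), had 4.37, 7.52 and 10.0 against 0.0174, 0.0423 and 0.0747, with a log2 fold change of 7.11 ± 0.17. For each of these genes every macula densa sum lay far above every thick limb sum. The others were Ndst4, a heparan sulfate N-deacetylase and N-sulfotransferase (log2 fold change 6.44), the lincRNA C630028M04Rik (6.23), Prr16 (5.88), Bmper, a secreted modulator of bone morphogenetic proteins (5.46), and C130050O18Rik (5.28). The calls of all 12 genes held under every alternative that tested them, but the genes were picked for their large rise in these same data, so this too is a description.

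**Figure D4:**
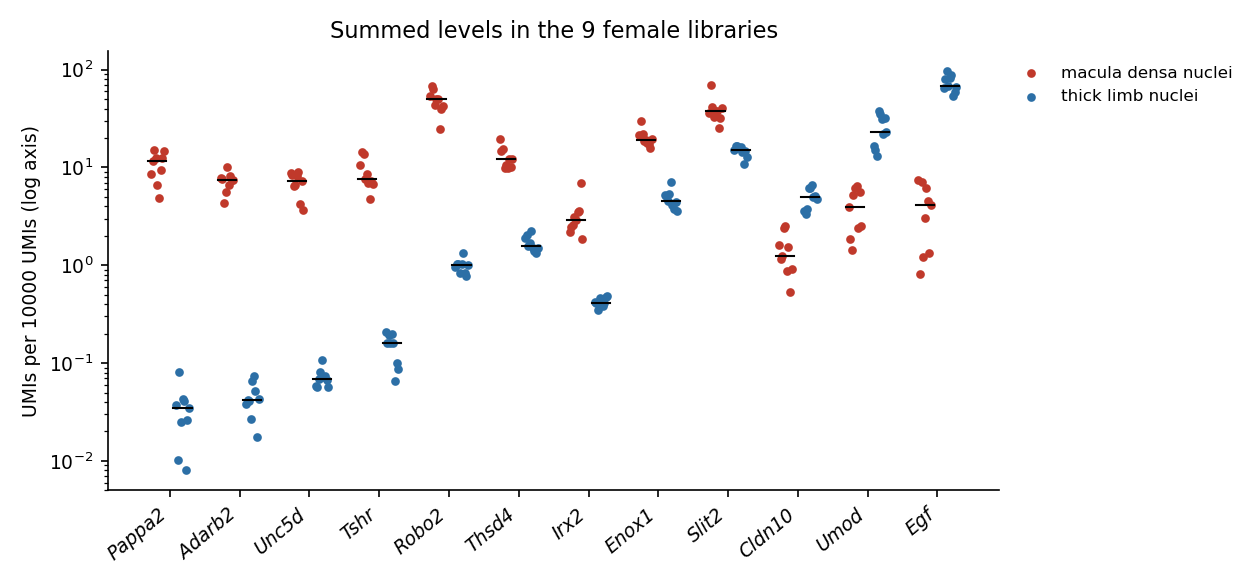
Level per 10000 UMIs (log axis) of 12 genes in the summed macula densa nuclei and thick limb nuclei of each of the 9 female libraries (points), with the median as a line. For each gene the 9 sums of one class lie wholly above or below the 9 sums of the other.

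Of the 24 genes of the macula densa list, 23 were in the tables (Oxtr is not analysed here) and 17 passed the filter. Summed over the libraries, 19 of the 23 stood higher in members and 4 lower (Foxq1, Fabp3, Cyr61 and Dct), in part on few UMIs. Among the 17, 13 were called higher, 2 lower and 2 did not pass, where 5.36% of all genes tested were called higher and 16.3% lower. Some of the 17 are nearly absent from thick limb sums (0.00484 per 10000 for Ptgs2 and 0.0200 for Bmp3) and passed the filter through the members, where they are high, so the count and the median log2 fold change of the 17 (2.69, against -0.22 over all genes tested) are a description. The same holds for the lists that follow, whose counts cover the genes that passed and stand against the same 5.36% higher and 16.3% lower of all genes tested. Ptgs2 (chromosome 1, 150100031 to 150108227, plus strand) had 0.465, 0.730 and 3.15 per 10000 in macula densa sums and at most 0.0130 in thick limb sums (log2 fold change 7.70 ± 0.33, adjusted p = 1.70e-116). Bmp3, a bone morphogenetic protein family ligand, rose by 5.46 on the log2 scale. Itga4, an integrin subunit, and Avpr1a, a vasopressin receptor, rose by 4.27 and 4.24, the latter in 8 of 9 libraries. The other genes that rose were Pamr1 (3.35), Ncam1, a neural cell adhesion molecule (3.00), Thsd4 (2.69), Slc9a2, the sodium-proton exchanger NHE2 (1.98), Ramp3 (1.79), Etv1 (1.70) and Wwc2 (0.69).

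Foxq1, a forkhead transcription factor, fell by 4.72 on the log2 scale and Fabp3, a fatty acid binding protein, by 2.62. They rest on 1 and 3 UMIs in all members, and the ratio of the summed levels was 0.0402 for Foxq1 (95% exact counting interval 0.00102 to 0.224) and 0.183 for Fabp3 (0.0378 to 0.537). Sema3c (0.10) and Cyr61 (-0.96) did not pass. Of the 6 listed genes under the filter, Ptges, the inducible prostaglandin E synthase, had 4 UMIs in members and Dct none (it is listed at 0 throughout 5 of the 9 libraries), and Tmem158 and Ccdc109b had 12 and 15 UMIs. Ramp3 lost its call without sucrose replicate 2 (1.35) and passed in no protocol alone.

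The prostaglandin list followed the pathway from arachidonate release to receptors. Pla2g4a, the cytosolic phospholipase that releases arachidonate, had 1.34, 3.47 and 4.80 per 10000 in macula densa sums and 0.660, 0.834 and 0.943 in thick limb sums, with no overlap (log2 fold change 1.92 ± 0.15, adjusted p = 5.69e-35). The exporter Abcc4 (0.64) and the prostaglandin E receptor genes Ptger4 (1.53) and Ptger3 (0.32) were also called higher. Ptger3 had 5 reversed values among the alternatives, including -0.03 against thick limb nuclei with at least 5 UMIs of Slc12a1, Ptger4 lost its call without sucrose replicate 2 (1.06), and Abcc4 without FANS 3x500g replicate 2 (0.42). Ptgds, a prostaglandin D synthase, was called lower at -2.35 and Hpgd, which inactivates prostaglandins, at -2.06 (-0.91 without call against thick limb nuclei with at least 5 UMIs of Slc12a1). They rest on 2 and 3 UMIs in all members, with ratios of the summed levels of 0.212 (95% exact counting interval 0.0256 to 0.767) and 0.260 (0.0535 to 0.763). Both lost their call with DESeq2, with total-count scaling and without the library as a block. The constitutive cyclooxygenase gene Ptgs1 had 2 UMIs in members and did not pass. Of 12 genes tested 5 were higher, 2 lower and 5 not called (median -0.14).

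In the nitric oxide and cGMP list, 2 of 9 genes tested were higher, 3 lower and 4 not called (median -0.19). Gucy1a2, a subunit of the soluble guanylate cyclase that nitric oxide activates, had 0.848, 1.17 and 3.01 per 10000 in macula densa sums and 0.182, 0.262 and 0.351 in thick limb sums (log2 fold change 2.05 ± 0.23, adjusted p = 6.90e-17). Dlg4, the scaffold protein PSD-95, was called higher (1.23) in 7 of 9 libraries and lost its call without FANS 3x500g replicate 1 (0.96). Prkg1, a cGMP-dependent protein kinase gene, fell by 1.83 and Nos1ap, the adaptor protein of neuronal nitric oxide synthase, by 0.76. The call of Ass1, an enzyme of arginine synthesis, as lower (-0.58) turned to 0.80 against thick limb nuclei with at least 5 UMIs of Slc12a1. The other synthases, Nos2 and Nos3, were under the filter at 0 UMIs in members.

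Of 15 genes of thick limb salt transport tested, 10 were called lower, against 16.3% of all genes, 1 was called higher and 4 did not pass, with a median of -0.58. Slc9a3, the apical sodium-proton exchanger NHE3, had 0, 0.1699 and 0.814 per 10000 in macula densa sums and 3.47, 3.84 and 5.11 in thick limb sums, without overlap, and fell by 4.01 ± 0.23 on the log2 scale (adjusted p = 2.53e-63). Bsnd, the gene of barttin, fell by 1.31. Among the potassium channel genes, Kcnj10 fell by 3.63 on 3 UMIs in 1 member (ratio 0.0925, 95% exact counting interval 0.0191 to 0.271) and Kcnj16 by 0.88, while Kcnj1, the apical channel ROMK, was called lower at -0.58 and lost that call with total-count scaling.

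Atp1b1, the gene of a sodium pump beta subunit, fell by 0.99. Kcnj15 was called lower at -1.30 but stood at 0.38 against thick limb nuclei with at least 5 UMIs of Slc12a1. Wnk4, a regulatory kinase gene, was called lower at -0.53 and lost that call with DESeq2 and with total-count scaling. Of the genes that did not pass, Fxyd2 was at -0.23, Kcnma1 at 0.30, Stk39 at -0.31 and Wnk1 at 0.15.

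Thick limb identity genes were lower in 10 of 13 cases, higher in 2 and not called in 1, with a median of -0.96. Of all genes tested, 16.3% were called lower and 5.36% higher. Egf had 0.813, 4.17 and 7.41 per 10000 in macula densa sums and 53.9, 67.7 and 97.4 in thick limb sums, and fell by 4.49 ± 0.12 on the log2 scale (adjusted p = 7.32e-303). No UMI of Egf was found in 159 of 233 members, and 4 members held 46.9% of the 292 Egf UMIs of the class. Umod had 1.43, 3.99 and 6.43 against 13.0, 23.2 and 37.7, and fell by 2.91 ± 0.12 (adjusted p = 7.63e-119). Tmem207 fell by 5.95, with 6 UMIs in all members.

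Among the claudins, which form the paracellular pores, Cldn19 fell by 3.54 and Cldn10 by 1.92, while Cldn16 was called lower at -0.98 but not with RLE size factors or DESeq2. Tmem72 fell by 0.96 and Ppp1r1a by 0.71. Mal was called lower at -0.68 but not with total-count scaling, and Casr, the calcium-sensing receptor, at -0.60 but not against depth-matched thick limb nuclei. Enox1 rose: it had 15.8, 19.2 and 30.1 per 10000 in macula densa sums and 3.58, 4.59 and 7.08 in thick limb sums (log2 fold change 1.85 ± 0.11, adjusted p = 4.24e-63). Cdh16, a kidney cadherin, was at 0.32 and did not pass.

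Of 16 nephron transcription factors, 4 were higher, 5 lower and 7 not called (median -0.34). Irx2 had 1.85, 2.89 and 6.98 per 10000 in macula densa sums and 0.348, 0.416 and 0.485 in thick limb sums (log2 fold change 2.64 ± 0.17, adjusted p = 3.01e-52), and Irx1, near it on chromosome 13, rose by 2.15 ± 0.18. Esrrb, an orphan nuclear receptor, went the other way, with 0, 0.340 and 1.19 against 2.75, 3.92 and 5.95, and fell by 3.33 ± 0.21. Its relative Esrrg was called higher at 0.34, which 9 alternatives lost and 1 reversed. Tfcp2l1 rose by 0.92, and Sim1, Mecom, Pax8 and Emx1 were called lower at -0.70, -0.41, -0.44 and -2.07, Emx1 on 4 UMIs. The calls of Mecom and Pax8 were lost with total-count scaling, and those of Pax8 and Emx1 against thick limb nuclei with at least 5 UMIs of Slc12a1 (-0.28 and -0.76).

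The axon guidance list, which includes genes used here in epithelia, split into 7 genes higher, 9 lower and 11 not called of 27 tested (median -0.40). Besides Unc5d and Robo2, Sema3a (3.11), Ncam1 (3.00), Robo1 (1.54), Slit2 (1.14) and Nrp1 (0.39, lost in 12 alternatives) were called higher. Slit2, a secreted ligand of the Robo receptors, had 25.5, 37.6 and 69.3 per 10000 in macula densa sums and 10.8, 15.0 and 16.6 in thick limb sums, without overlap. Ntn4, a netrin, fell by 2.49 ± 0.23, and Epha4, Efna5 and Ephb2 of the ephrin system by 1.28, 1.02 and 0.91. Slit3, Plxna2, Plxna4, Nrxn3 and Dcc were called lower as well, but Slit3 stood at 0.18 against thick limb nuclei with at least 5 UMIs of Slc12a1, and Plxna2 and Plxna4 lost their calls there, Plxna2 also without FANS 3x500g replicate 1 (-0.79). Nrxn3 and Dcc lost theirs with RLE size factors, and Dcc rests on 3 UMIs in members (ratio 0.328, 95% exact counting interval 0.0674 to 0.962).

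No gene of the growth factor and MAPK list was higher in edgeR, also at an unadjusted p of 0.05. Of its 16 genes 6 were called lower, against 16.3% of all genes tested, and 10 did not pass (median -0.39). Vegfa, the vascular endothelial growth factor, had 0.292, 1.06 and 1.63 per 10000 in macula densa sums and 2.01, 2.86 and 4.15 in thick limb sums, and fell by 1.89 ± 0.19 (adjusted p = 1.86e-22). The receptor genes Egfr, Igf1r and Fgfr2 fell by 1.63, 1.13 and 1.12, while the calls of Fgfr3 and Mapk14 as lower were lost with RLE size factors, and that of Mapk14 also without FANS 3x500g replicate 3 (-0.47). In the steroid receptor list 1 of 9 genes was higher (Fkbp5, 0.90), 2 were called lower, with Nr3c1, the glucocorticoid receptor, among them, and 6 did not pass (median -0.41). In the purinergic and renin-angiotensin list 1 of 7 genes tested was higher (Atp6ap2, the prorenin receptor, 0.88, and 0.68 without call when sucrose replicate 1 was left out), P2ry2 was called lower with 0 UMIs in members, and 5 did not pass (median -0.31). Adora1 was under the filter with 1 UMI in members.

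**Figure D5:**
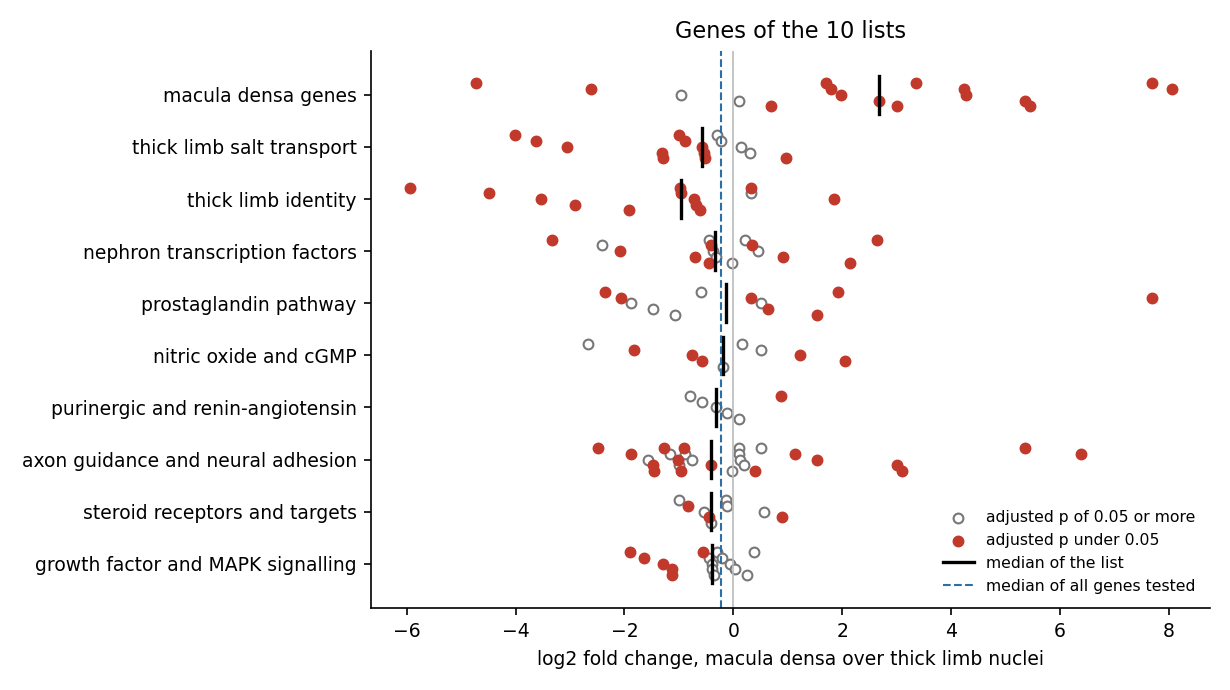
Log2 fold change between macula densa and thick limb nuclei for the tested genes of 10 lists (points, filled where called), with the median of each list (black line) and of all genes tested (dashed line at -0.22); P2ry2, at 0 UMIs in members, is left out. The median of the macula densa list stands at 2.69 and those of the other 9 lists between -0.96 and -0.14.

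The 12 genes called lower with the lowest fitted fold change had no UMI in the 233 members, so just a bound can be given, against a floor of 3 UMIs over all members. Scel, which encodes sciellin, had 0.599, 0.788 and 1.21 per 10000 in thick limb sums and was at least 18.1-fold lower in members. Pex5l, a relative of the peroxisomal import receptor, had 0.512, 0.853 and 0.954 and was at least 17.8-fold lower. The other bounds were 5.92 for Gm13269, 5.60 for Sulf2, 5.39 for Gm10848, 5.26 for Gm42705, 5.19 for Gm4211, 5.15 for Stk32a, 5.14 for Prox1os, 5.05 for Lynx1, 5.01 for Bmp5 and 4.39 for Pcdh19. Gm13269, Gm10848 and Prox1os are annotated as antisense, and whether reads of other genes add to their counts was not tested. Scel and Pex5l kept their call in every alternative, and the other 10 lost it in 1 to 3.

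Single members differed in which of these genes they held. Shares are compared between classes and not between genes, since longer genes give more nuclear UMIs. Robo2 was found in 232 of 233 members, with a median of 12 UMIs, and in 9.55% of thick limb nuclei. Thsd4 was found in 93.6%, Tshr in 74.2%, Unc5d in 67.8% and Pappa2 in 59.2% of members, against 22.5%, 2.72%, 1.68% and 0.595% of thick limb nuclei. Ptgs2 was found in 48 members (20.6%), against 0.129% of thick limb nuclei, and 34 of the 48 also held Pappa2. At 2294 to 2792 median UMIs per nucleus, a nucleus without a UMI may still express the gene.

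Looked at from the genes, members held 54.1% of all Pappa2 UMIs of the female nuclei, 44.2% of Ptgs2, 28.8% of Adarb2, 27.1% of Unc5d and 11.6% of Tshr. They held 7.87% of the Robo2 UMIs, while 588 nuclei with at least 10 UMIs of podocyte markers held 18.1%. Of the 143 nuclei with at least 2 UMIs each of Pappa2 and Slc12a1, 107 were members, 22 held 1 Nos1 UMI and 14 none. The share was lower for the other genes counted this way. Of 576 nuclei with at least 5 UMIs of Robo2 and 2 of Slc12a1, 215 were members and 281 held no Nos1 UMI. With at least 2 UMIs of Tshr, 117 of 316 were members and 166 held none, and with Unc5d 108 and 53 of 187. A further 2160 nuclei with at least 5 UMIs of Robo2 and 820 with at least 2 of Tshr held fewer than 2 UMIs of Slc12a1.

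Markers of other cell types were measured in both classes. Proximal tubule markers (6 of 6 with a UMI in both) were at 3.24 to 35.5 per 10000 in macula densa sums and 17.0 to 30.9 in thick limb sums, and 27.0% and 29.8% of nuclei held 3 or more UMIs of them. The 3 thin limb markers were at 0 in members. Distal convoluted tubule markers were at 0.680 to 10.9 against 2.63 to 9.33, and connecting tubule markers at 0.1699 to 34.9 against 4.85 to 19.6. The highs were set by 1 member of sucrose replicate 1 with 59 UMIs of Slc12a3 and 1 of sucrose replicate 3 with 147 UMIs of Slc8a1. The podocyte markers Nphs1 and Wt1, the intercalated marker Foxi1, the mural marker Akr1b7, the neuronal marker Elavl4 and 3 of 4 fibroblast markers (Col1a1, Col3a1 and Dcn) were at 0 in members. In sums, the medians of principal cell (0.806 against 1.71), intercalated (0.1700 against 1.34), endothelial (0.806 against 3.47), mural, mesangial and renin (0.121 against 0.640), podocyte (0.1700 against 0.562), macrophage (0.1699 against 0.758) and neuron and Schwann markers (0 against 0.115) were lower in members. Single libraries went the other way: endothelial markers were higher in members in 3 of 9 libraries, at up to 7.45 against at most 3.92 in thick limb sums, neuron and Schwann markers in 4, and principal (3.24), mural, mesangial and renin (3.47) and podocyte markers (1.02) in 1 each. No doublets were removed here, and leaving out the 77 members and 6380 thick limb nuclei with 3 or more UMIs of 1 other type kept Pappa2, Robo2, Tshr and Unc5d higher and Egf, Umod and Slc9a3 lower.

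Macula densa nuclei were also compared between preparations. Of 1616 genes tested in the 9 macula densa sums, 56 were higher and 1 lower in FANS 1x2000g than in FANS 3x500g nuclei (3.53%), and 47 were higher and 3 lower in sucrose than in FANS 3x500g nuclei (3.09%). Without a filter on low counts the latter contrast gave 34 higher and 88 lower. RLE size factors gave the same counts as TMM, but total-count scaling was not run between protocols. The balance of higher and lower genes is therefore not read as a result. Just 2 genes (0.124%) differed between sucrose and FANS 1x2000g. Kap, the kidney androgen-regulated protein of the proximal tubule, had 1.06 to 1.86 per 10000 in FANS 3x500g members and 15.5 to 23.9 in FANS 1x2000g members (log2 fold change 3.96 ± 0.26, adjusted p = 3.19e-10). Spp1, osteopontin, had 2.28 to 2.79 in FANS 3x500g, 16.7 to 18.98 in FANS 1x2000g and 12.0 to 21.5 in sucrose members. Dbi (2.99), Chchd10 (2.81) and Wfdc2 (2.74) were also among the 5 largest rises in FANS 1x2000g, and Tmem59 (3.02), Itm2b (2.95), Cox7c (2.78) and Tmem176b (2.73) in sucrose.

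In thick limb nuclei of the same libraries, 53 of the 57 genes and 42 of the 50 were called in the same direction. As a background, 45.4% and 65.1% of the 1615 genes tested in both classes were called in thick limb nuclei in either direction in these contrasts, and 10.3% and 11.8% were called higher. Lower in members were Car8 in FANS 1x2000g (-1.19) and Nrxn3 (-1.73), Wwox (-0.88) and Pde10a (-0.66) in sucrose, of which just Wwox (-0.42) was also called in thick limb nuclei, where Car8 stood at 0.019, Nrxn3 at -0.44 and Pde10a at -0.35. In FANS 3x500g libraries Car8 had 3.33 to 4.15 per 10000 in members and 0.0805 to 0.115 in thick limb sums. Pde10a had 27.1 to 32.4 and 0.488 to 0.858. At such low levels thick limb nuclei are a weak comparison for these 2 genes. The calls of Car8, Wwox and Pde10a were lost with DESeq2 (adjusted p = 0.236, 0.0628 and 0.0661) and without any 1 of 4 to 6 single libraries, and that of Nrxn3 without sucrose replicate 1 or 2. Among the rises, Chchd10 and Cox7c (18 UMIs in sucrose members) lost theirs without any 1 of 3 and 4 single libraries. Between sucrose and FANS 1x2000g, Malat1, a nuclear noncoding RNA, was higher (0.64 ± 0.12, lost without any 1 of 3 single libraries) and Kap lower (-1.73 ± 0.24). Of the 8 macula densa list genes tested, none was called by edgeR in any of the 3 contrasts, and 3 of 24 tests had an unadjusted p under 0.05. Over all 1616 genes tested, 193 had an unadjusted p under 0.05 in FANS 1x2000g against FANS 3x500g. For sucrose it was 289 against FANS 3x500g and 132 against FANS 1x2000g. The share among the list genes was close to that over all genes. Robo2 stood at 61.3 ± 7.48, 47.8 ± 4.02 and 35.8 ± 9.53 per 10000 (SD, n = 3) in FANS 3x500g, FANS 1x2000g and sucrose members, with a fitted log2 difference of -0.47 ± 0.18 for sucrose minus FANS 3x500g (adjusted p = 0.1698). The fitted value is scaled by TMM and is smaller in size than the fall in these levels. Pappa2 stood at 11.8 ± 3.24, 7.97 ± 4.00 and 12.1 ± 2.62. Tshr, outside the list and not among the genes called in any of the 3 contrasts, stood at 12.9 ± 2.01, 7.66 ± 0.817 and 6.24 ± 1.31.

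Whole-kidney values gave a context for these genes outside nuclei. Fresh cells dissociated in the cold, from mice of the same 2 experiments, held 1 member among 1164 macula densa plus thick limb cells in females and 0 among 401 thick limb cells in males, with 11 Nos1 UMIs in the 63833021 UMIs of the female cells. These cells cannot show whether members were present: the authors kept genes found in at least 10 cells, and Nos1 is listed at 0 throughout 5 of the 6 cell libraries, in which the gate could not be met. In bulk RNA-seq of female kidneys Nos1 had 3.91 to 6.42 per 1000000 reads in the cold-dissociated suspension, against the 3.34 to 5.22 of intact tissue, and Pappa2 had 3.05 to 8.96 and 2.28 to 7.73 (n = 3 each). The bulk ranges of intact and dissociated kidney overlapped for both genes. In bulk, fewer cells of a type and less RNA per cell cannot be told apart, and cell libraries count exonic reads near the 3′ end while nuclei count introns too.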

How the data were processed

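The 12 nuclei libraries and, for context, 6 libraries of fresh cells and 9 of bulk RNA were used. The deposited values are counts: the authors aligned 10x reads with Cell Ranger 2.1.1 to mm10 (for nuclei with intronic reads), called cells with EmptyDrops, left out genes found in fewer than 10 cells (rarer genes mostly read 0 throughout a library, with 11 to 444 genes per library in 1 to 9 barcodes), low-quality barcodes and, for nuclei, mitochondrial genes, and deposited UMI counts without normalization; bulk read counts came from STAR 2.6.1a and featureCounts. No barcode was filtered further. UMIs were summed per library and class and tested with edgeR 4.0.16 in R 4.3.3 (TMM, filterByExpr, quasi-likelihood, Benjamini-Hochberg over all genes tested, library as a block), with DESeq2 1.42.0 as an alternative. The script was tested on simulated data, where the filter let through false calls as lower, so that a stricter filter was added. Shares were compared with exact permutation tests over libraries. Intervals and floors (3 counts) cover counting error only. Gene positions are from GENCODE M21. Replicate numbers follow accession order and were not used to pair libraries across groups, and whether the 3 female protocols used kidneys of the same mice is not given in the sources used here. Members, lists and tests were chosen with earlier results of these data known, named genes being the list genes and, per direction, the 12 with the largest change, at least 20 UMIs in the higher class and the same direction in all 9 libraries (between protocols, the 5 called genes with the largest change per direction, with no minimum). In all, 4 list genes are counted in their lists but not reported by name here. Alternatives were other scalings, filters, tests, gates, depths and libraries left out. No comparison of the members' genes between the sexes, and no fit of members on male libraries, could be made, since these held no member. A fit of male nuclei with 1 Nos1 UMI was added after seeing the data.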

Additional observations from a re-analysis of the deposited data

Results flagged for a closer look

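The difference between macula densa and thick limb nuclei differed between the 3 isolation protocols for 13 of 11689 genes (0.111%) by the interaction test of edgeR at an adjusted p of 0.05. The same interaction called 0 genes with DESeq2 (279 at an unadjusted p under 0.05), 3 without nuclei holding markers of another type, and 4 (without sucrose replicate 2) to 32 with 1 library left out. Relative to FANS 3x500g, the largest term on the log2 scale was 2.67 for Slc8a1, 3.22 for Slc12a3, -2.39 for Meis2, -1.87 for Cryl1, -1.63 for Pck1, -1.14 for Lrp2, 2.03 for Phactr1, -1.25 for Slc34a1 and -1.15 for Slc27a2 in sucrose, and 1.12 for Nhs, 1.29 for Slc47a1, 2.00 for Abcc2 and 2.00 for Hao2 in FANS 1x2000g. Single members carried several of these values: 147 of 150 Slc8a1 UMIs of sucrose replicate 3, 59 of 60 Slc12a3 UMIs of sucrose replicate 1, and all 25 Meis2 UMIs of FANS 1x2000g replicate 2 lay in 1 member each. Without the 2 members high in Slc8a1 or Slc12a3, the adjusted p was 0.338 for Slc8a1, 1 for Slc12a3, 0.912 for Phactr1, 0.0663 for Abcc2, 0.0720 for Hao2, 0.0720 for Slc27a2 and 4.05e-08 for Meis2, so that 6 of the 13 lost their call. This could not test Meis2, since the members of sucrose replicates 1 and 3, where the 2 lay, held 0 and 3 Meis2 UMIs in all. Lrp2, Slc34a1 and Slc27a2 are among the 6 proximal tubule markers measured.

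The male libraries held no member, but 18 male nuclei had 1 UMI of Nos1 and at least 2 of Slc12a1, a signal outside the comparisons above. They held 35.85 UMIs of the macula densa list per 10000, against 10.1 in male thick limb nuclei at the same depth (median 646 and 648 UMIs), and 19.78 of Robo2, against 0.613. These are not separate signals: Robo2 is in the list and gave 32 of the 58 list UMIs of these nuclei, against 179 of 2947. In a fit of those nuclei with edgeR (6904 genes, 2 higher and 83 lower), Robo2 was higher by 3.60 ± 0.49 on the log2 scale (32 UMIs, adjusted p = 8.54e-10) and Egf stood at -2.52 ± 0.33 (adjusted p = 2.92e-10). The summed level of Egf was 30.3 per 10000 in these nuclei, against 64.1 in male thick limb nuclei. For both genes the fitted value lay below what the summed levels give. The fit was scaled by TMM alone, so its counts of higher and lower genes are not read as a balance. Pappa2 had no UMI in these 18 nuclei.

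Among the 14781 female thick limb nuclei without a Nos1 UMI, 42 (0.284%) held 3 or more of Robo2, Pappa2, Tshr and Unc5d, as did 47 of 132 nuclei with 1 Nos1 UMI (35.6%) and 171 of 233 members (73.4%). These 4 genes were chosen after their values were seen.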

How the results depend on the processing

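Of 97 named genes called, 42 kept their call in every alternative that tested them (up to 27), and 18 of 3918 recomputed values of single genes reversed. Of the 55 that did not, 27 lost their call just in fits on 1 protocol or on nuclei with 1 Nos1 UMI. Among the other settings, the calls lost numbered 15 (DESeq2 and total-count scaling), 14 (no replicate block), 13 (thick limb nuclei with at least 5 or 10 UMIs of Slc12a1), 9 (at least 3 Nos1 UMIs) and 8 (RLE size factors, depth-matched nuclei, no markers of another type). Reversed log2 fold changes without nuclei holding markers of another type were 0.26 for Kcnj15, -0.10 for Ptger3 and 0.80 for Ass1. Against thick limb nuclei with at least 5 and 10 UMIs of Slc12a1 they were 0.38 and 0.41 for Kcnj15, -0.032 and -0.036 for Ptger3, 0.80 and 0.83 for Ass1, 0.18 and 0.18 for Slit3, and 0.19 and 0.20 for Fgfr3. Ptger3 was -0.0094 in sucrose libraries alone, Nrxn3 0.041 against depth-matched thick limb nuclei and 0.067 in FANS 3x500g libraries alone, and with exactly 1 Nos1 UMI Ptger3 was -0.034 and Esrrg -0.0062. The cause was not tested. The calls of Ptger3, Cldn16, Esrrg, Pax8, Ptgds, Hpgd, Ass1, Nrxn3, Nrp1, Dcc, Nr3c1 and Fgfr3 were lost without any 1 of 2 to 7 single libraries each.

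For macula densa against thick limb nuclei, genes lower numbered 1159 with DESeq2, 822 with depth-matched thick limb nuclei (4793 genes tested) and 978 in FANS 3x500g libraries alone, and genes higher 399 at a log2 fold change of at least 1 and 1059 with total-count scaling. FANS 1x2000g libraries alone gave 255 higher and 660 lower, sucrose libraries alone 187 and 646, and nuclei with exactly 1 Nos1 UMI 160 and 939. Leaving out 1 library gave 521 to 621 higher and 1711 to 1912 lower. Replicate numbers follow accession order and were not used to pair libraries across groups. The library block pairs the 2 classes of a library, and without this replicate block 605 genes were higher and 1754 lower.

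Between protocols, FANS 1x2000g against FANS 3x500g gave 0 lower with DESeq2 (19 at an unadjusted p under 0.05), 6 lower without a filter and 25 higher without nuclei holding markers of another type, and 38 to 67 higher and 0 to 3 lower with 1 library left out. Sucrose against FANS 3x500g gave 1 lower with DESeq2 or at a log2 fold change of at least 1, 34 higher and 88 lower without a filter, and 30 higher without nuclei of another type, and 24 (without sucrose replicate 2) to 55 higher and 1 to 17 lower with 1 library left out. Sucrose against FANS 1x2000g gave 3 higher and 15 lower without a filter, 0 higher in edgeR at a log2 fold change of at least 1, and 3 lower without nuclei of another type, and 0 to 3 higher and 1 to 3 lower with 1 library left out. The interaction called 8 genes without a filter, 0 with DESeq2 (279 at an unadjusted p under 0.05) and 3 without nuclei of another type, and from 4 to 32 (without FANS 1x2000g replicate 3) with 1 library left out.

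Of 52 recomputed differences in share, 0 reversed. Those of female minus male could not reverse where the male share was 0, which held in all settings but that with at least 1 UMI of Nos1. With 1 library left out they ran from -5.38 to -1.08 for FANS 1x2000g minus FANS 3x500g, from -10.3 to -5.99 for sucrose minus FANS 3x500g, from -6.71 to -3.57 for sucrose minus FANS 1x2000g and from 17.0 to 21.3 for female minus male. A fit on female libraries alone and a minimum of 2 UMIs of Slc12a1 gave the values above, since every member was female and held at least 4. Total-count scaling, the filter of 20 UMIs, single protocols, nuclei with 1 Nos1 UMI, thick limb nuclei with at least 10 UMIs of Slc12a1 and, between protocols, the removal of nuclei of another type were chosen after seeing the data. With 15 to 45 members per library, depth limits genes of few UMIs, above all calls as lower.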

Other observations

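Signal was spread unevenly over members for some genes. The 4 members richest in Egf held 46.9% of the class's Egf UMIs, against 5.95% for Robo2 and 15.6% for Pappa2. At least 10 UMIs of Egf were found in 8 members (3.43%) and in 64.7% of thick limb nuclei.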
